A study of Drosophila melanogaster with 15 samples.

Results

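Serine synthesis, folate-linked one-carbon metabolism and the reactions that join them to methionine were represented by 9 genes, chosen by name, with earlier results of these data known. They are CG6287 (the fly Phgdh gene), CG11899 (Psat), aay, Shmt (listed on earlier arrays as CG3011), Nmdmc, pug, Gnmt, Sardh and Cbs. Each had exactly 1 probe set on the array, out of 11982 genes with a probe set of their own. A filter on dim probe sets, which asked for a signal above the array's own median on at least 3 of the 15 arrays, kept 10340 probe sets and 8 of the 9 genes. Sardh did not pass and was not tested.

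Transcripts were measured on Affymetrix arrays in the complete central nervous system of Drosophila larvae at the wandering L3 stage, reared at 25 °C. All 5 groups carried nSyb-Gal4, a driver that is active in neurons, and each had 3 arrays. The control larvae carried the driver without an RNAi construct (nSyb-Gal4/w in the series text, nsybGal4/+ in the sample labels). The RNAi groups targeted ND-75 of complex I (line 33910), UQCR-14 of complex III (line 109542), COX5B of complex IV (line 105769) and ATPsynCf6 of the ATP synthase, or complex V (line 107826). Each sample pooled 15 dissected larvae, and 10 ng of RNA was amplified. The driver acts in neurons, whereas RNA came from the complete tissue, glia and neuroblasts included. Each target had 1 line and the control had no RNAi construct, so an effect of the target cannot be told apart from an effect of its line. The comparisons address which transcripts differ in larvae carrying RNAi against a subunit of a respiratory complex, and whether they differ between complexes.

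Serine is made from a glycolytic intermediate by a dehydrogenase, a transaminase and a phosphatase, here CG6287, CG11899 and aay. Serine hydroxymethyltransferase then moves a carbon from serine to folate, leaving glycine, and folate enzymes such as Nmdmc and pug interconvert the carried units for use in purine, thymidylate and methionine synthesis. In mammalian cells with impaired respiration, genes of this route, MTHFD2 among them, are known to be raised through the transcription factor ATF4, whose fly counterpart is crc.

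Markers of neurons, glia and neuroblasts were present. Of 12 such genes with a probe set, 11 lay above the array median on all 15 arrays, and brp, which encodes a synaptic active zone protein, did so on 13. Markers of neighbouring tissues were measured too. The 7 salivary gland markers, 6 of them glue protein genes (Sgs) and none at 0, summed to 881, 1850 and 12713 in control and to 10634, 3529 and 17691 in UQCR-14 RNAi. The sums were 960.0 to 7170 in ND-75 RNAi, 2314 to 10846 in COX5B RNAi and 998 to 1767 in ATPsynCf6 RNAi. Of these 7, 4 rose in UQCR-14 RNAi with array weights and over the 10 arrays defined below. Of all probe sets, 4.47% and 4.59% were called there in either direction. Of 5 ring gland markers, 4 had a probe set, and their sum was 2328 to 3774 on the arrays numbered 3 of the control, ND-75, UQCR-14 and COX5B groups and 157 to 1012 on the other 11. The neuron markers summed to 2393 to 10603 on those 4 arrays and to 10807 to 29761 on the other 11. Sums were 5857 to 9130 against 10021 to 16280.5 for glia, and 1632 to 2883 against 4162 to 5218 for neuroblasts. The part of tissue content in the values of these arrays was not tested. The distribution of signals on 5 arrays stood apart from the rest, namely COX5B RNAi 1 and the arrays numbered 3 of control and of the ND-75, UQCR-14 and COX5B groups. The upper quartile of signal was 169.8 to 485 on these arrays. It was 566 to 653 on the other 10. The ratio of the 3' to the 5' actin signal, a measure of RNA integrity, was 70.1 on COX5B RNAi 1, 37.4 on ND-75 RNAi 2 and 20.1 on ND-75 RNAi 3, and between 2.94 and 5.03 on the other arrays. Silencing was not shown by these arrays, since no targeted gene passed in the group meant to silence it in any of the 3 fits used below, at an adjusted p under 0.05. On the log2 scale the changes were -0.55, -0.41 and -0.53 for ND-75, and -0.72, -0.14 and -0.53 for COX5B. They were 0.15, -0.13 and -0.044 for UQCR-14 and -0.0014, 0.054 and 0.074 for ATPsynCf6. Values are therefore given over all 15 arrays, over 15 arrays with weights estimated per array, and over the 10 arrays that do not stand apart. In the last of these COX5B RNAi kept a single array, whose spread was taken from the other groups. The lowest weight was 0.0266 (COX5B RNAi 1) and the highest 5.21 (control 1), so the weighted and the 10-array fits rest largely on the same arrays and are no independent check of each other.

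Over all 15 arrays, 0 of the 8 tested genes changed against control in any RNAi group at an adjusted p under 0.05 (limma). At an unadjusted p under 0.05 there was 1 gene, CG6287 in COX5B RNAi (5.59% of all probe sets), and 0 in the other groups (1.296% to 2.21%). Among all tested probe sets, 0.0677% were called in ND-75 RNAi, 0.0193% in ATPsynCf6 RNAi, 0.0484% in UQCR-14 RNAi and 0% in COX5B RNAi, and 0.0484% for the mean of the 4 RNAi groups. The standard error of the 8 genes had a median of 0.82 and a range of 0.38 to 0.99 on the log2 scale, so that differences of the size described below could not be detected in this fit. With array weights, 1 gene was called, Gnmt in ATPsynCf6 RNAi, where 6.91% of all probe sets were called. The count was 0 of 8 for ND-75 (1.57% of all probe sets), UQCR-14 (4.47%), COX5B (0.203%) and the mean of the RNAi groups (3.99%), with 1, 2, 0 and 4 genes at an unadjusted p under 0.05, where 10.7%, 17.98%, 5.16% and 16.7% of all probe sets lay. In the 10-array fit, CG6287 was called in UQCR-14 RNAi (4.59% of all probe sets) and for the mean of the RNAi groups (3.12%). For ND-75 (1.69%), COX5B (1.24%) and ATPsynCf6 (3.22%) it was 0 of 8, with 3, 1 and 3 genes at an unadjusted p under 0.05, where 14.1%, 12.7% and 14.9% of all probe sets lay. In the comparisons with a call, 3 of 8 genes had an unadjusted p under 0.05 in ATPsynCf6 RNAi with weights, beside 19.99% of all probe sets. Over the 10 arrays there were 4 in UQCR-14 RNAi (21.1%) and 1 for the mean (16.4%). A share of 1 called gene in 8 rests on a single gene and does not set the genes apart from the shares called. The unadjusted counts were not tested against their backgrounds.

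Replicate numbers deviated together between control and 3 of the RNAi groups. The fits that made calls were therefore repeated with the number as a block, an alternative chosen after the data were seen. The block covered ATPsynCf6 RNAi too, whose numbers did not deviate with those of control. Over the 10 arrays the number 3 occurs only in ATPsynCf6 RNAi, so there the block takes ATPsynCf6 RNAi 3 out of every comparison. Of the 6 calls of the genes in those fits, against control or between RNAi groups, 1 was kept and 5 were lost. Over the 10 arrays with the block, 0 of 8 genes were called (limma), where 2.34% of all probe sets were called in UQCR-14 RNAi, 1.73% for the mean, 2.07% for ATPsynCf6 against ND-75 and 1.1% for ATPsynCf6 against UQCR-14. At an unadjusted p under 0.05 these held 3, 3, 4 and 2 of the 8 genes, beside 18.4%, 13.3%, 16.2% and 17.8% of all probe sets. With array weights and the block, the calls against control were aay in ND-75 RNAi (3.43% of all probe sets), aay and pug in UQCR-14 RNAi (15.7%), CG6287 in COX5B RNAi (5.93%) and Gnmt in ATPsynCf6 RNAi (2.76%). Between RNAi groups they were pug for UQCR-14 against ND-75 (2.94%) and for COX5B against ND-75 (5.3%), and Gnmt for ATPsynCf6 against ND-75 (2.46%) and against UQCR-14 (3.4%). The values stand beside each gene below.

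**Figure D1:**
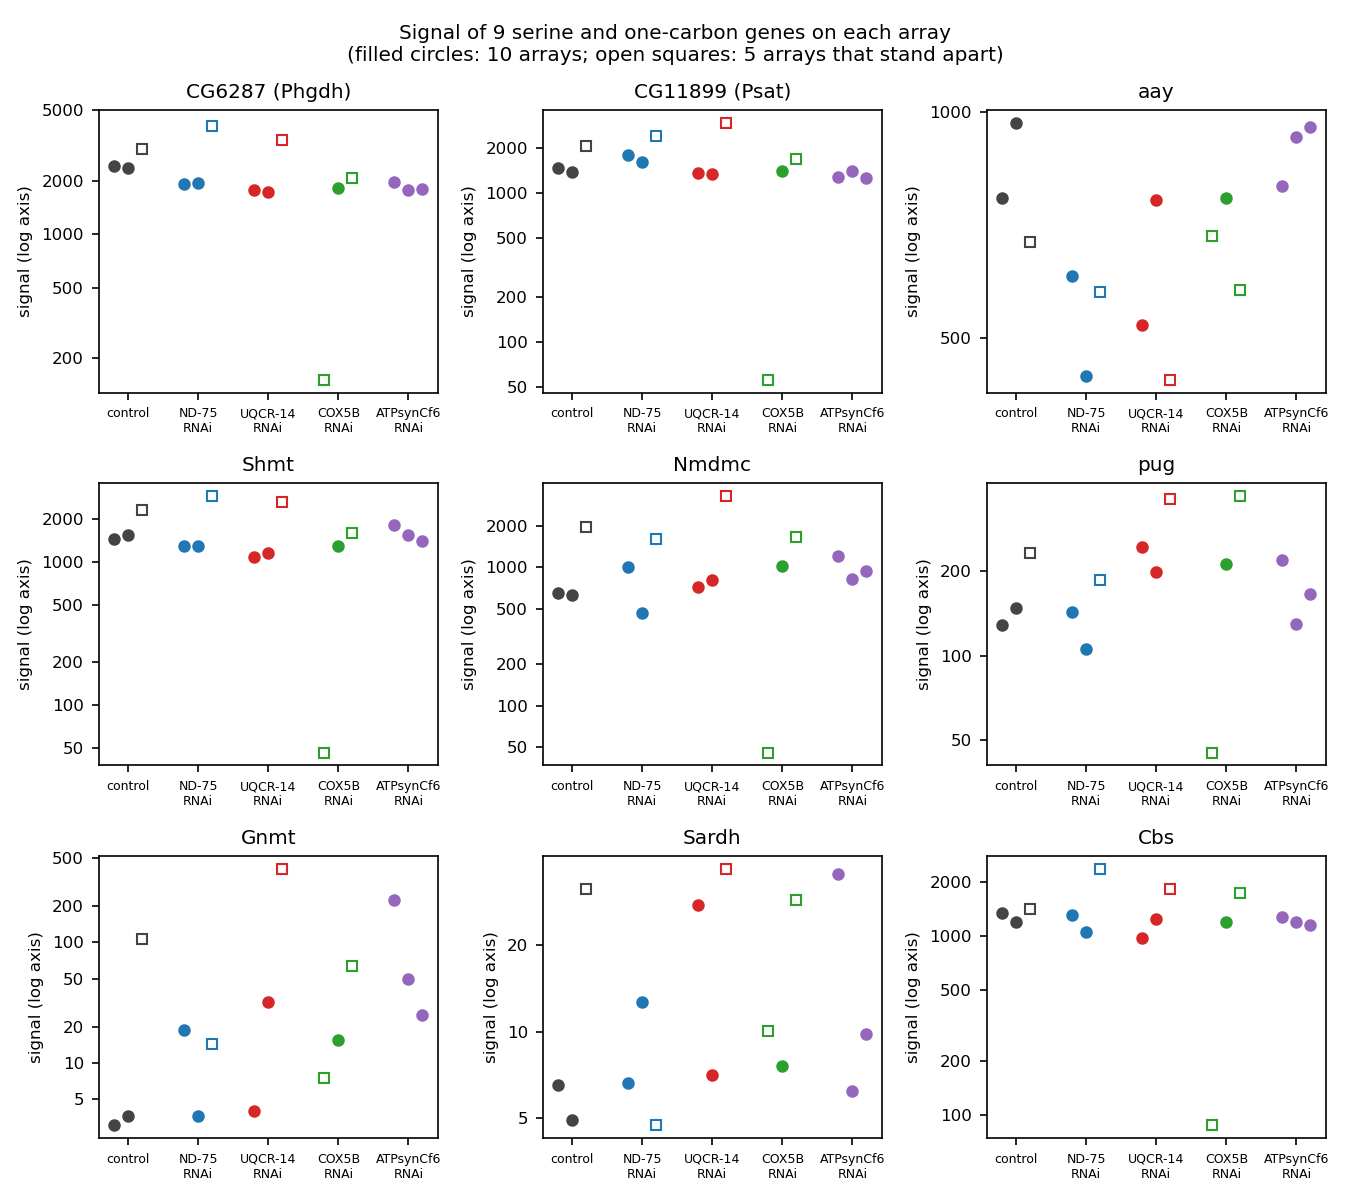
Signal of each of the 9 genes (log axis, in the units of the deposited values) on each of the 15 arrays, by group. Filled circles are the 10 arrays that do not stand apart and open squares are the other 5. COX5B RNAi 1 is the lowest point of CG6287, CG11899, Shmt, Nmdmc, pug and Cbs, and the open squares of the arrays numbered 3 are the highest of their groups for these genes.

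CG6287 encodes 3-phosphoglycerate dehydrogenase, the first enzyme of serine synthesis. Its signals (probe set 1629207_at) were 2423, 2374 and 3015 in control, 1931, 1939 and 4099.5 in ND-75 RNAi, and 1781, 1737 and 3416 in UQCR-14 RNAi. They were 151, 1833 and 2080.4 in COX5B RNAi and 1979, 1787 and 1791 in ATPsynCf6 RNAi. All 3 arrays of COX5B RNAi and all 3 of ATPsynCf6 RNAi lay below all 3 control arrays, as 4.41% and 6.26% of all probe sets did in these groups. In ND-75 RNAi and UQCR-14 RNAi the array numbered 3 was above every control array and the other arrays were below them.

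Among the 10 arrays, all 8 RNAi arrays lay between 1737 and 1979 and both control arrays at 2374 and 2423. The same order, all 8 below both, was found for 6.03% of all probe sets. CG6287 fell in UQCR-14 RNAi, by 0.44 on the log2 scale (SE 0.11, 95% interval -0.69 to -0.20, adjusted p = 0.0427), and in the mean of the RNAi groups, by 0.38 (SE 0.090, interval -0.57 to -0.18, adjusted p = 0.0417). Neither passed with the replicate number as a block over the same arrays, at -0.44 (adjusted p = 0.0984) and -0.36 (adjusted p = 0.132). The salivary gland sums of 10634 and 3529 on UQCR-14 RNAi 1 and 2 stood beside 881 and 1850 on control 1 and 2, and their part in this difference was not tested. The differences in the other groups were of similar size and did not pass, at -0.31 in ND-75 RNAi (adjusted p = 0.235), -0.38 in COX5B RNAi (0.242) and -0.37 in ATPsynCf6 RNAi (0.078). Between pairs of RNAi groups the differences ran from -0.14 to 0.072. With array weights the 4 changes were -0.26, -0.44, -0.42 and -0.39 for complexes I, III, IV and V, and none passed (adjusted p = 0.0834 to 1.00). With weights and the block CG6287 was called in COX5B RNAi, at -0.62 (SE 0.18, adjusted p = 0.0446). Across all 15 arrays without weights the 4 changes were -0.058, -0.24, -1.59 and -0.48.

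The calls for CG6287 depended on which of the 10 arrays were fitted, while the size of the fall changed little. Leaving out a control or UQCR-14 RNAi array left 1 array of that group. Leaving out an ATPsynCf6 RNAi array kept the UQCR-14 RNAi change at -0.44, and the call was still lost. When each of the 10 arrays was left out in turn, except COX5B RNAi 2 as the lone array of its group, the UQCR-14 RNAi call was kept in 2 of 9 fits, those without ND-75 RNAi 1 or ND-75 RNAi 2, with changes of -0.46 to -0.43 and adjusted p of 0.0203 to 0.191. The call for the mean was kept in 3 of 9, those without ND-75 RNAi 1, ND-75 RNAi 2 or ATPsynCf6 RNAi 1 (adjusted p = 0.0207 to 0.306). Among arrays numbered 3, which the 10 arrays lack apart from ATPsynCf6 RNAi, the difference from control 3 was 0.44 in ND-75 RNAi and 0.18 in UQCR-14 RNAi, and -0.53 in COX5B RNAi.

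CG11899 encodes phosphoserine aminotransferase, the second enzyme. Its signals (1625613_at) were 1463, 1382 and 2077 in control, 1792, 1614 and 2399 in ND-75 RNAi, and 1355, 1342 and 2942 in UQCR-14 RNAi. They were 55.6, 1393 and 1695 in COX5B RNAi and 1269, 1399 and 1269 in ATPsynCf6 RNAi. Every RNAi group overlapped the control arrays. In ND-75 RNAi each array was higher than the control array of the same number, by 0.29, 0.22 and 0.21. The share of all probe sets in this order is not given. The ND-75 RNAi change of CG11899 was 0.26 over the 10 arrays (interval 0.0046 to 0.51, adjusted p = 0.344), and it did not pass. The same fit gave -0.12 in ATPsynCf6 RNAi (interval -0.35 to 0.11), -0.076 in UQCR-14 RNAi (-0.33 to 0.18) and -0.029 in COX5B RNAi (-0.34 to 0.28).

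The third enzyme is the phosphoserine phosphatase encoded by aay (astray). Its signals (1633488_at) were 768, 966 and 671 in control, 603, 445 and 576 in ND-75 RNAi, and 519.6, 762 and 439 in UQCR-14 RNAi. They were 683, 767 and 579 in COX5B RNAi and 796, 925 and 956 in ATPsynCf6 RNAi. All 3 ND-75 RNAi arrays were below all 3 control arrays, as were 4.13% of all probe sets, and the other groups overlapped control. The ND-75 RNAi change was -0.55 (SE 0.38) over 15 arrays, -0.58 (SE 0.18, adjusted p = 0.146) with weights and -0.72 (SE 0.20, interval -1.15 to -0.28, adjusted p = 0.116) over the 10 arrays, and it did not pass in any of the 3 fits. With weights and the block it was -0.67 (adjusted p = 0.0427) in ND-75 RNAi and -0.45 (adjusted p = 0.0367) in UQCR-14 RNAi, and both passed. On COX5B RNAi 1, the array of the lowest signals of CG6287, CG11899, Shmt, Nmdmc, pug and Cbs, the aay signal of 683 lay inside the control range.

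By group medians, aay was highest in ATPsynCf6 RNAi (925), followed by control (768), COX5B RNAi (683), ND-75 RNAi (576) and UQCR-14 RNAi (519.6). All 3 ATPsynCf6 RNAi arrays were above all 3 ND-75 RNAi arrays, as were 9.93% of all probe sets. Between these 2 groups aay was higher in ATPsynCf6 RNAi by 0.69 with array weights (SE 0.17, adjusted p = 0.030) and by 0.76 over the 10 arrays (SE 0.18, interval 0.37 to 1.15, adjusted p = 0.0353), in a comparison that called 3.05% and 4.52% of all probe sets. Over 15 arrays the difference was 0.71 (SE 0.38, interval -0.093 to 1.52) and did not pass, where 0.0484% of probe sets were called. With the block the difference was 0.71 both with weights (adjusted p = 0.0907) and over the 10 arrays (adjusted p = 0.118), and the call was lost. Over the 10 arrays this is the difference without ATPsynCf6 RNAi 3, so the block and that leave-out are not separate checks. ND-75 RNAi 2, the array of the lowest aay signal in its group, had the actin ratio of 37.4. Without it the difference was 0.55 (adjusted p = 0.239) over the remaining arrays and 0.59 (adjusted p = 0.844) with weights. The call was also lost over the 10 arrays without any 1 of the 3 ATPsynCf6 RNAi arrays (adjusted p = 0.0589 to 0.117). With weights it was lost without ND-75 RNAi 1, COX5B RNAi 1, ATPsynCf6 RNAi 2 or ATPsynCf6 RNAi 3 (adjusted p = 0.0650 to 0.735). The part of RNA integrity in this difference was not tested.

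Shmt encodes serine hydroxymethyltransferase, which links serine to folate. Its signals (1640594_at) were 1448, 1551 and 2327 in control, 1302, 1293 and 2918 in ND-75 RNAi, and 1094, 1160.5 and 2665 in UQCR-14 RNAi. They were 46.1, 1302 and 1618 in COX5B RNAi and 1838, 1554 and 1415 in ATPsynCf6 RNAi. The groups overlapped control in each case. Shmt did not pass against control in any of the 3 fits. The 10-array changes were 0.087 in ATPsynCf6 RNAi, -0.41 in UQCR-14 RNAi (interval -0.69 to -0.12, adjusted p = 0.1002), -0.21 in ND-75 RNAi and -0.20 in COX5B RNAi. Between ATPsynCf6 RNAi and UQCR-14 RNAi the difference over the 10 arrays was 0.49 (SE 0.12, interval 0.23 to 0.76, adjusted p = 0.0495), with 2.82% of all probe sets called. With the block it was 0.58 (adjusted p = 0.0770) and did not pass. It was 0.44 with weights (adjusted p = 0.267) and 0.084 over 15 arrays, where the array UQCR-14 RNAi 3 had the signal of 2665, and it did not pass in these (1.86% and 0.029% of probe sets called). Of the 9 fits that left out 1 of the 10 arrays, 2 kept the call, those without ND-75 RNAi 1 or ND-75 RNAi 2, and adjusted p ran from 0.0243 to 0.296 over the 9.

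Over the 48 comparisons of 1 gene between a pair of RNAi groups, 0 passed over 15 arrays, 1 with weights and 2 over the 10 arrays. These are the aay and Shmt differences above. At an unadjusted p under 0.05 there were 0, 6 and 11, beside 3.86%, 7.50% and 14.3% of all such comparisons over all probe sets. Over 15 arrays the shares of all probe sets called between 2 RNAi groups were 0.0677% for complex III against I, 0.0484% for IV against I, 0.0484% for V against I, 0.029% for IV against III, 0.029% for V against III and 0.00967% for V against IV. With weights they were 1.03%, 0.106%, 3.05%, 0.029%, 1.86% and 0.0193% in this order. For the 10 arrays they were 1.97%, 0.793%, 4.52%, 0.0677%, 2.82% and 0.377%. The joint moderated F test for any difference between RNAi groups called 0 of 8 genes in each of the 3 fits, where 0.106%, 2.72% and 4.4% of all probe sets were called, and 0, 1 and 5 genes had an unadjusted p under 0.05, beside 2.78%, 12.9% and 21.5% of all probe sets.

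Nmdmc encodes a mitochondrial methylenetetrahydrofolate dehydrogenase and cyclohydrolase, the counterpart of mammalian MTHFD2. Its signals (1640775_a_at) were 648, 630.0 and 1972 in control, 997, 469 and 1615 in ND-75 RNAi, and 725, 805 and 3277 in UQCR-14 RNAi. They were 45.7, 1020.1 and 1654 in COX5B RNAi and 1202, 816 and 936 in ATPsynCf6 RNAi. Among the 10 arrays, 7 of 8 RNAi arrays were above both control arrays, the exception being ND-75 RNAi 2, but control 3 was above every array of ATPsynCf6 RNAi. The share of all probe sets with 7 of 8 above is not given. The 10-array changes were 0.59 in ATPsynCf6 RNAi (interval 0.065 to 1.12, adjusted p = 0.265), 0.66 in COX5B RNAi (-0.047 to 1.37), 0.25 in UQCR-14 RNAi and 0.098 in ND-75 RNAi, and none passed. With weights the ATPsynCf6 RNAi change was 0.53 (adjusted p = 0.158), and over 15 arrays it was 0.060 (interval -2.04 to 2.16).

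The cytoplasmic trifunctional folate enzyme, MTHFD1 in mammals, is encoded by pug (pugilist). Its signals (1637444_s_at) were 128, 149 and 233 in control, 143, 106 and 187 in ND-75 RNAi, and 245, 199 and 364 in UQCR-14 RNAi. They were 45.0, 213 and 372 in COX5B RNAi and 220.0, 130.1 and 166 in ATPsynCf6 RNAi. Each UQCR-14 RNAi array was above the control array of the same number, by 0.85, 0.38 and 0.61, although the groups overlapped. The share of all probe sets in this order is not given. The UQCR-14 RNAi change was 0.62 over 15 arrays (SE 0.56), 0.59 with weights (SE 0.23, adjusted p = 0.173) and 0.62 over the 10 arrays (SE 0.25, interval 0.069 to 1.17, adjusted p = 0.183), and it did not pass in these fits. With weights and the block it passed, at 0.56 (SE 0.16, adjusted p = 0.0237), and pug was then higher than in ND-75 RNAi by 0.81 in UQCR-14 RNAi (adjusted p = 0.0418) and by 0.89 in COX5B RNAi (adjusted p = 0.0332). Over the 10 arrays the change was 0.26 in ATPsynCf6 RNAi, 0.57 in COX5B RNAi and -0.15 in ND-75 RNAi, none of which passed.

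**Figure D2:**
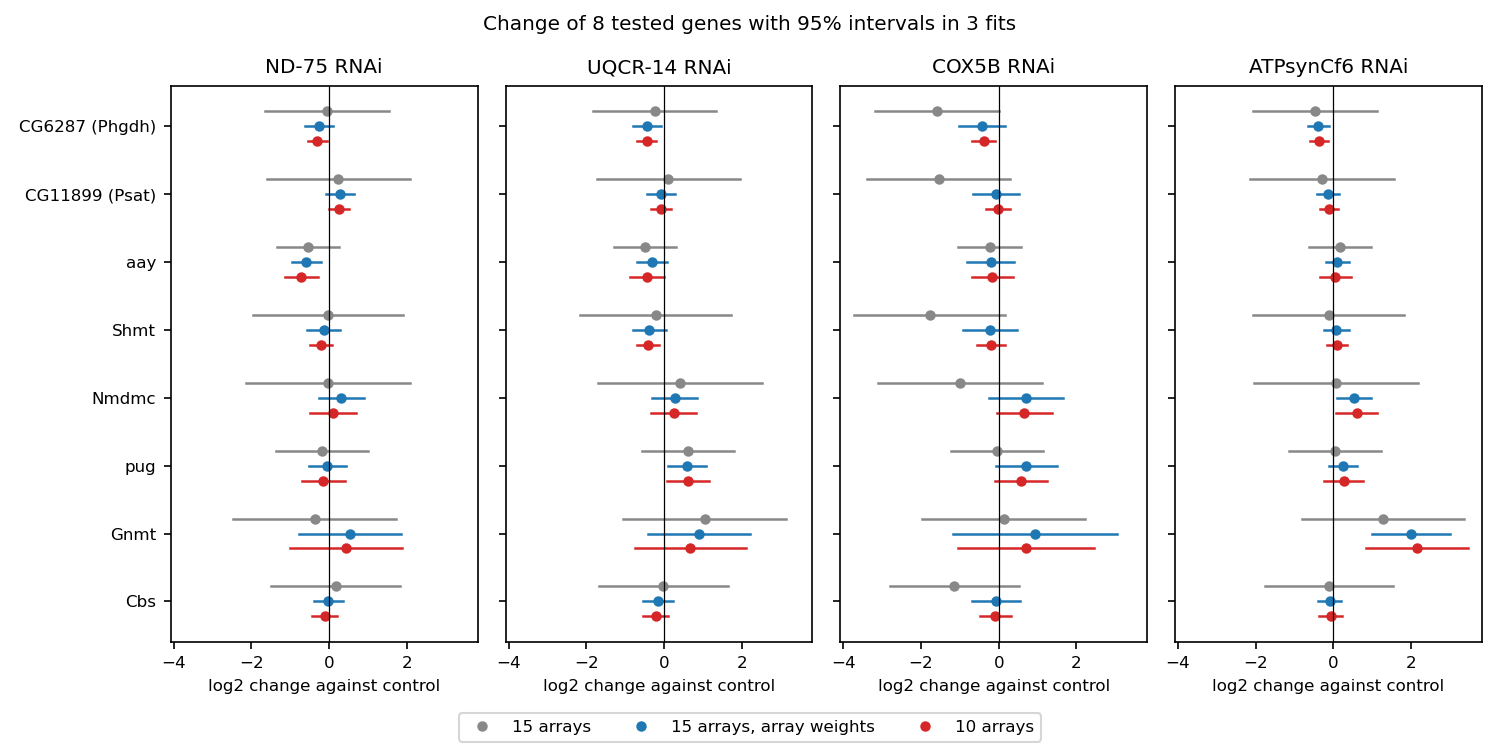
Log2 change against control of the 8 tested genes in each RNAi group, with 95% intervals, over 15 arrays (grey), over 15 arrays with array weights (blue) and over the 10 arrays (red). The grey intervals include 0 except for CG6287 in COX5B RNAi, whose upper end lies just below 0, and the CG6287 points lie below 0 in all panels.

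Gnmt encodes glycine N-methyltransferase, which uses S-adenosylmethionine to methylate glycine and is known as an abundant enzyme of the larval fat body. Its signals (1634551_at) were low, at 3.04, 3.64 and 106 in control, 18.8, 3.65 and 14.4 in ND-75 RNAi, and 4.01, 31.8 and 404 in UQCR-14 RNAi. They were 7.49, 15.5 and 63.7 in COX5B RNAi and 222, 49.4 and 25.2 in ATPsynCf6 RNAi. Only 5 of the 15 arrays had Gnmt above the array's median, so that no exact fold is given and changes are on the scale of log2(signal + 16). Control 3 was above every array of ND-75 RNAi and of COX5B RNAi, and all groups overlapped control. Among the 10 arrays, all 8 RNAi arrays were above both control arrays, by as little as 3.65 against 3.64, as were 4.05% of all probe sets.

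In ATPsynCf6 RNAi, Gnmt passed the test with array weights as higher than control, at 1.99 on this scale (SE 0.47, interval 1.00 to 2.99, adjusted p = 0.0139). Control 1 and control 2, at 3.04 and 3.64, lay below their array medians of 31.8 and 31.0, so the size of the difference depends on the pseudocount. Over 15 arrays it was 2.40 with a pseudocount of 1 and 0.64 with 64, neither of which passed. With weights and the block it was 2.46 (adjusted p = 0.0112), and Gnmt was then also higher than in ND-75 RNAi by 2.67 (adjusted p = 0.0234) and than in UQCR-14 RNAi by 2.04 (adjusted p = 0.0308). In the 10-array fit the change was 2.16 (SE 0.60, interval 0.85 to 3.46, adjusted p = 0.0838), and over 15 arrays it was 1.27 (SE 0.98, interval -0.82 to 3.36). Neither of these passed. The weighted call was kept in 13 of 15 fits that left out 1 array, and lost without control 1 (0.71, adjusted p = 0.916) or without control 2 (0.74, adjusted p = 0.870). Each of those fits leaves 1 of the low control arrays and control 3 at 106. In the other groups Gnmt did not pass in any of the 3 fits, with 10-array changes of 0.70 in COX5B RNAi, 0.68 in UQCR-14 RNAi and 0.44 in ND-75 RNAi.

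The genes whose values across arrays were most like those of Gnmt were Npc2g, a member of a family of sterol-binding proteins, fon (fondue), a haemolymph clotting protein, and IM33, from a family of immune-induced peptides. Their Pearson correlations with Gnmt were 0.94, 0.94 and 0.91 over the 15 arrays and 0.91, 0.92 and 0.87 over the 10, as a description over arrays that share groups and differ in signal distribution. The larval storage protein Lsp2, a fat body gene, was also among the 20 most similar probe sets in both, at 0.87 and 0.89. Its signals were 238, 323 and 1429 in control, 304, 210.2 and 671 in ND-75 RNAi, and 646, 561 and 2119 in UQCR-14 RNAi. They were 175, 332 and 494 in COX5B RNAi and 3812, 721 and 366 in ATPsynCf6 RNAi. The arrays of the highest Lsp2 signal, ATPsynCf6 RNAi 1, UQCR-14 RNAi 3 and control 3, were also those of the highest Gnmt signal. They held the highest signals of Npc2g (107, 186 and 70.7), fon (944, 664 and 311) and IM33 (135, 150 and 71.2) too, in this order. Like Gnmt, Npc2g and IM33 were dim, lying below the array median on most arrays. How far the correlations rest on these few arrays was not tested.

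**Figure D3:**
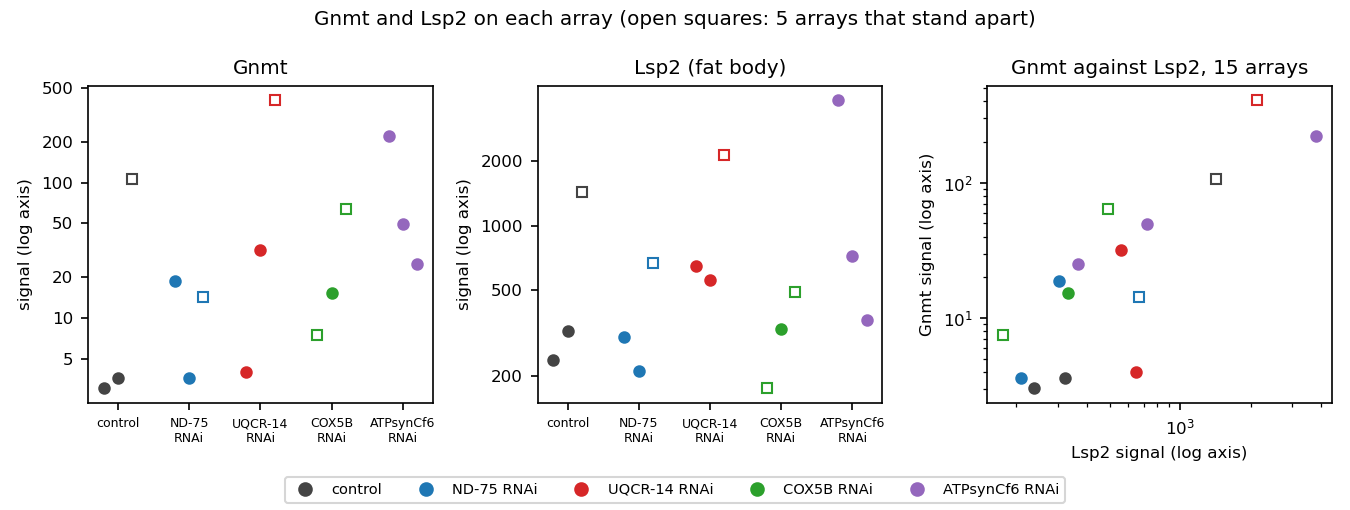
Signals of Gnmt and of the fat body gene Lsp2 on each array by group, and Gnmt against Lsp2 across the 15 arrays, all on log axes in the units of the deposited values. Open squares are the 5 arrays that stand apart. Both genes are highest on ATPsynCf6 RNAi 1, UQCR-14 RNAi 3 and control 3.

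Of 8 listed fat body markers, 5 had a probe set, and all 5 lay above the median on every array. None was at 0. Their summed signal ran from 6595 to 7729 in control, from 7223 to 8674 in ND-75 RNAi and from 8949 to 10288 in UQCR-14 RNAi. It ran from 6376 to 12234 in COX5B RNAi and from 7947 to 12908 in ATPsynCf6 RNAi. The UQCR-14 and ATPsynCf6 sums were thus above those of every control array. These sums include apolpp, which encodes the lipophorin precursor, at 2043 to 11842, while none of the others exceeded 3812. The markers did not run together over 15 arrays. Fbp1, Fbp2 and Lsp2 correlated with Gnmt at 0.72 to 0.87, Col4a1, a collagen gene, at 0.045 and apolpp at -0.72. Over the 10 arrays the values were 0.50 for Fbp1, 0.81 for Fbp2, 0.89 for Lsp2, 0.51 for Col4a1 and -0.23 for apolpp. In pooled tissue, fewer cells of a type and less RNA per cell cannot be told apart, and the part of fat body RNA in the Gnmt values was not tested.

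Sardh encodes sarcosine dehydrogenase, which returns the methyl group of the Gnmt product to folate. Its signals (1639819_at) were 6.55, 4.95 and 31.3 in control, 6.63, 12.7 and 4.72 in ND-75 RNAi, and 27.6, 7.08 and 36.9 in UQCR-14 RNAi. They were 10.1, 7.60 and 28.8 in COX5B RNAi and 35.6, 6.24 and 9.80 in ATPsynCf6 RNAi. Only 1 array had Sardh above its median, all groups overlapped control, and no change is given.

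Cbs encodes cystathionine beta-synthase, which joins serine to homocysteine on the way to cysteine. Its signals (1638171_s_at) were 1347, 1201 and 1414 in control, 1315, 1049 and 2371 in ND-75 RNAi, and 974, 1238 and 1839 in UQCR-14 RNAi. They were 87.7, 1194 and 1748 in COX5B RNAi and 1284, 1199 and 1157 in ATPsynCf6 RNAi. All groups overlapped control. The 10-array changes were -0.21 in UQCR-14 RNAi (interval -0.53 to 0.11), -0.11 in ND-75 RNAi (-0.44 to 0.21), -0.090 in COX5B RNAi (-0.49 to 0.31) and -0.069 in ATPsynCf6 RNAi (-0.36 to 0.23). Cbs did not pass in any of the 3 fits.

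In COX5B RNAi over 15 arrays, CG6287, CG11899, Shmt, Nmdmc and Cbs had changes of -0.999 to -1.78, and none passed. COX5B RNAi 1 held the lowest signal of each of these genes, between 45.7 and 151, with the actin ratio of 70.1. All kept probe sets had a median change of -0.32 in this group. Without that array, as in the 10-array fit, the same 5 genes were between -0.38 and 0.66. These genes also moved together across arrays. The 10 pairwise correlations among them were 0.90 to 0.99 over 15 arrays and -0.36 to 0.52 over the 10 arrays. Over 15 arrays the correlations therefore rested on the arrays that stand apart.

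For aay, the genes most like it by the same rule were mbl, which encodes a splicing regulator, and para, the voltage-gated sodium channel gene, with correlations of 0.79 and 0.76 over 15 arrays and 0.92 for both over the 10. For Shmt they were CG6937 and TyrRS-m, a mitochondrial tyrosyl-tRNA synthetase gene, at 0.99 for both over 15 arrays and 0.90 and 0.95 over the 10. No gene met the rule for CG6287.

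Beyond the 9 genes, a list of 30 further one-carbon, glycine, methionine and purine genes had 28 with a probe set and 22 tested. Over 15 arrays 0 of the 22 were called against control (limma), with 1 at an unadjusted p under 0.05 (5.59% of all probe sets in that group), Gart, a purine synthesis gene that was lower in COX5B RNAi and is named here after its values were seen. The only genes of the list called against control with weights or over the 10 arrays were Sam-S and Gcat, both higher, beside 6.91% of all probe sets called in ATPsynCf6 RNAi and 4.47% in UQCR-14 RNAi with weights. The median change of the 22 over the 10 arrays was 0.14 in ATPsynCf6 RNAi, 0.014 in COX5B RNAi, -0.14 in UQCR-14 RNAi and -0.065 in ND-75 RNAi, against -0.0070, 0.018, -0.026 and -0.028 over all kept probe sets. That of the 8 tested genes of the set was 0.066, -0.060, -0.14 and -0.13 in the same order.

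Sam-S encodes S-adenosylmethionine synthetase, which makes the methyl donor that Gnmt uses. Its signals were 4521, 4255 and 3921 in control, 5594, 5136 and 5418 in ND-75 RNAi, and 7715, 7763 and 3942 in UQCR-14 RNAi. They were 11661, 5701 and 6048 in COX5B RNAi and 5724, 5591 and 6475 in ATPsynCf6 RNAi. Every ND-75, COX5B and ATPsynCf6 RNAi array was above every control array, as were 3.54%, 2.99% and 8.95% of all probe sets, and UQCR-14 RNAi 3 was within the control range. Sam-S rose in UQCR-14 RNAi by 0.79 with weights (SE 0.16, adjusted p = 0.00629) and by 0.82 over the 10 arrays (SE 0.14, adjusted p = 0.00828). It also rose in ATPsynCf6 RNAi by 0.43 with weights (adjusted p = 0.0334), and in the mean of the RNAi groups by 0.49 with weights (adjusted p = 0.0259) and 0.48 over the 10 arrays (adjusted p = 0.0417). With 1 array left out, the UQCR-14 RNAi call was kept in 11 of 15 weighted fits and 6 of 9 of the others, the weighted change being 0.33 without UQCR-14 RNAi 1 and 0.32 without UQCR-14 RNAi 2. The ATPsynCf6 RNAi call was kept in 7 of 15 fits (changes of 0.36 to 0.54), and the call for the mean in 7 of 15 and 2 of 9. With the block the UQCR-14 RNAi calls were kept (adjusted p = 0.000201 with weights and 0.0324 over the 10 arrays). The ATPsynCf6 RNAi call was lost (adjusted p = 0.284), as was that for the mean over the 10 arrays (adjusted p = 0.141). The weighted call for the mean was kept (adjusted p = 0.00359). The part of salivary gland RNA in the UQCR-14 RNAi values was not tested.

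Gcat encodes the glycine C-acetyltransferase that, after threonine dehydrogenase, yields glycine from threonine. Its signals were 1066, 1617 and 879.7 in control and 2721, 2039 and 1938 in ATPsynCf6 RNAi, all 3 above all 3 control arrays, as were 8.95% of all probe sets. The lowest and the highest signals were 52.0 and 966 in COX5B RNAi, 757 and 1333 in UQCR-14 RNAi, and 767 and 1078 in ND-75 RNAi. In ATPsynCf6 RNAi Gcat rose by 0.80 with weights (SE 0.19, adjusted p = 0.0127), and over the 10 arrays it was 0.74 (adjusted p = 0.137) and did not pass. The weighted call was lost without control 1 (adjusted p = 0.871), control 2 (0.797) or ATPsynCf6 RNAi 1 (0.0762). The highest adjusted p over these fits was the same, 0.871, for Sam-S and for AsnS and Gadd45 below. This loss was therefore shared within the fit and not particular to Gcat. With the block the weighted Gcat call in ATPsynCf6 RNAi was kept, at 0.89 (adjusted p = 0.0499). Tdh, the threonine dehydrogenase gene, named here after its values were seen, had a change of 0.63 with weights in this group (adjusted p = 0.0594) and did not pass.

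**Figure D4:**
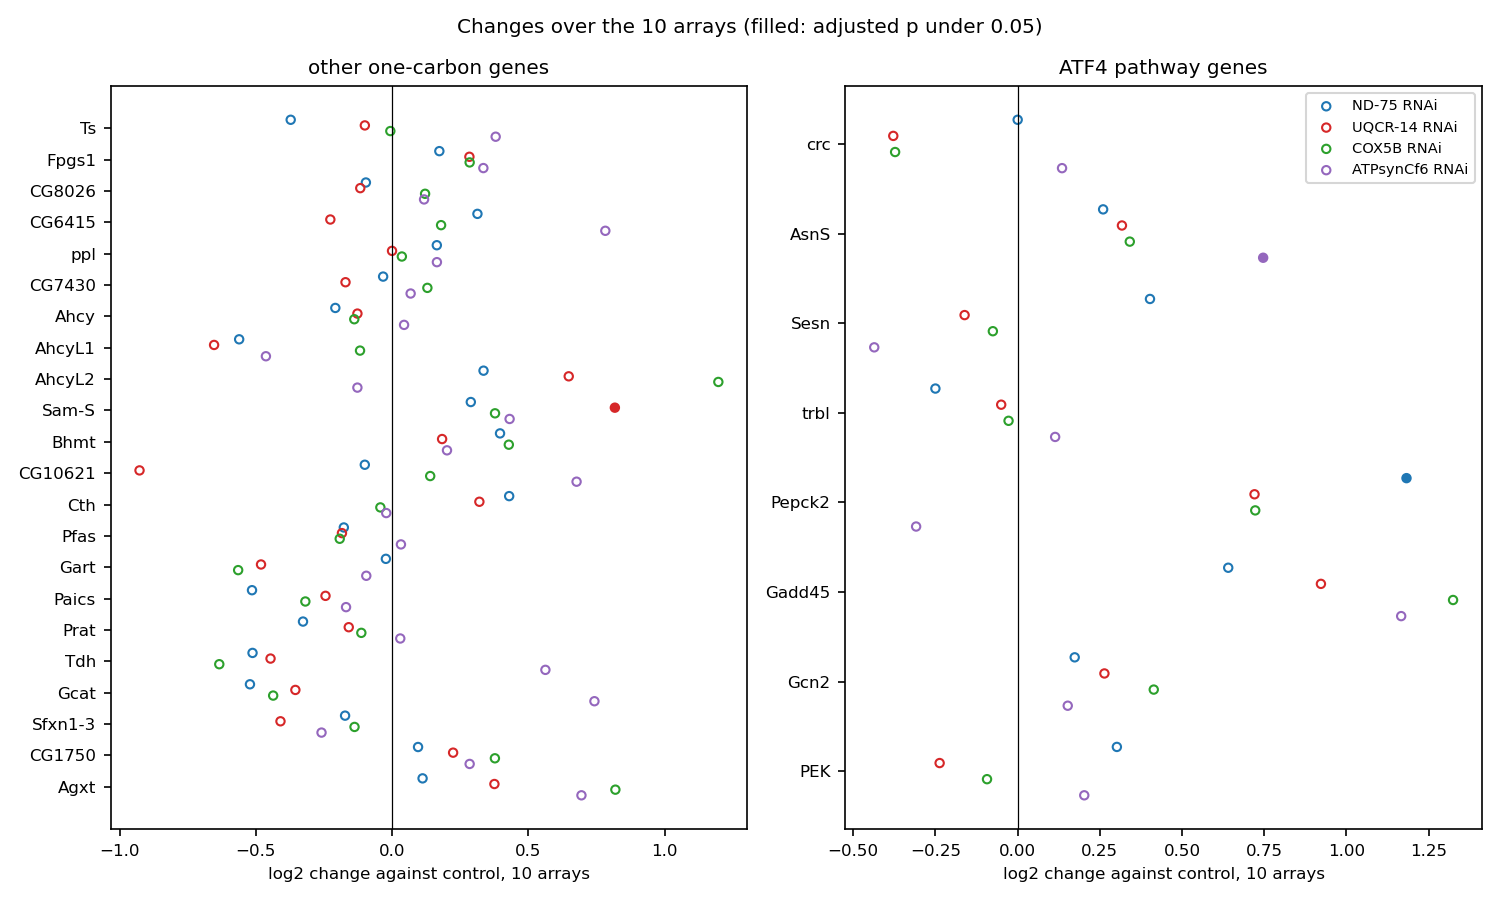
Log2 change against control over the 10 arrays for the 22 tested further one-carbon genes (left) and the 8 tested ATF4 pathway genes (right), by RNAi group. Filled points passed the test at an adjusted p under 0.05, namely Sam-S in UQCR-14 RNAi, AsnS in ATPsynCf6 RNAi and Pepck2 in ND-75 RNAi.

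Of 9 listed ATF4 pathway genes, 8 had a probe set and all 8 were tested. The ATF4 gene crc itself was not called in any group in the 3 fits, with 10-array changes of 0.14 in ATPsynCf6 RNAi, -0.37 in COX5B RNAi, -0.38 in UQCR-14 RNAi and 0.00027 in ND-75 RNAi. Over 15 arrays 0 of the 8 were called (limma), with 2 at an unadjusted p under 0.05, Pepck2 in ND-75 RNAi (1.499% of all probe sets) and Gadd45 in ATPsynCf6 RNAi (1.296%). The genes called in the other fits were AsnS and Gadd45 in ATPsynCf6 RNAi and Pepck2 in ND-75 RNAi, all higher. A call in a group does not show that the change was particular to that group, and the changes elsewhere are given below. Of all probe sets, 6.91% were called in ATPsynCf6 RNAi with weights and 3.22% over the 10 arrays, and 1.57% and 1.69% in ND-75 RNAi.

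AsnS encodes asparagine synthetase, a known ATF4 target in mammals. Its signals were 496, 509 and 558 in control and 931, 839 and 796 in ATPsynCf6 RNAi, with no overlap (8.95% of all probe sets in this direction). It rose there by 0.74 with weights (SE 0.13, adjusted p = 0.00180) and 0.75 over the 10 arrays (SE 0.14, adjusted p = 0.0151). The weighted call was kept in 13 of 15 fits, all but those without control 1 or control 2 (0.66 and 0.67), and the other in 5 of 9. With the block the weighted call was kept and the other lost (adjusted p = 0.0549). For complexes I, III and IV the 10-array changes of AsnS were 0.26, 0.32 and 0.34, the last from a single array. Those of ND-75 and UQCR-14 RNAi did not pass, nor did the mean of the RNAi groups, at 0.42 (adjusted p = 0.107). Among the 10 arrays every RNAi array was above both control arrays, as were 4.05% of all probe sets. Over 15 arrays the changes were 0.36 for complexes I and III, and negative in COX5B RNAi, where COX5B RNAi 1 was at 26.0.

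Pepck2 encodes a phosphoenolpyruvate carboxykinase. Its signals were 422, 241 and 163 in control and 699, 795 and 555 in ND-75 RNAi, again with no overlap (3.54% of all probe sets). It rose there by 1.06 with weights (SE 0.26, adjusted p = 0.0464) and 1.18 over the 10 arrays (SE 0.22, adjusted p = 0.0184). The weighted call was kept in 4 of 15 fits, with changes of 0.90 to 1.77, and the other in 7 of 9, with changes of 0.80 to 1.57. With the block both calls were kept (adjusted p = 0.00129 with weights and 0.0328 over the 10 arrays). ND-75 RNAi 2 and ND-75 RNAi 3 had the actin ratios of 37.4 and 20.1, and the part of RNA integrity in this difference was not tested. For complexes III, IV and V the 10-array changes of Pepck2 were 0.72, 0.72 and -0.31. The 15-array changes were 0.46, -0.46 and -0.0059 in this order.

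Gadd45, a stress-induced gene, was dim, with signals of 34.2, 7.14 and 10.6 in control and 59.6, 64.4 and 57.5 in ATPsynCf6 RNAi. All 3 RNAi arrays were above the control arrays, as were 8.95% of all probe sets. It rose by 1.05 on the log2(signal + 16) scale with weights (SE 0.28, adjusted p = 0.0284), a call kept in 10 of 15 fits. Over the 10 arrays it was 1.17 (adjusted p = 0.170) and did not pass. The weighted change was 1.63 without control 1, where the call was lost (adjusted p = 0.871). For complexes I, III and IV the 10-array changes of Gadd45 were 0.64, 0.92 and 1.32, the last from a single array and above that of ATPsynCf6 RNAi. The 15-array changes were 0.30, 0.94 and 0.50 in this order.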

How the data were processed

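The authors deposited 1 signal intensity per probe set and array, on a linear scale. The submitters' processing notes name MAS5, Affymetrix Expression Console and also Transcriptome Analysis Console, with no version given in the sources used here. The number of arrays limits the precision. Of 18952 probe sets, 183 array controls were left out. Of the remaining 18769, the array's annotation gave 1 gene for 13647, several for 402 and none for 4720.

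All 15 arrays entered 1 limma fit (version 3.58.1, R 4.3.3) of log2(signal + 16) with 5 group means, lmFit and eBayes with an intensity trend, two-sided, adjusted by Benjamini-Hochberg over all 10340 kept probe sets, with a threshold of 0.05. Nothing in the labels says that arrays of a group came from separate crosses, so p-values measure the spread between these samples, which may be technical. The alternatives were array weights, 10 arrays, the replicate number as a block, other pseudocounts (1 and 64), no filter, other normalizations and leaving out each array. Leaving arrays out of the fits that made a call, and a block in those fits, were added after the data were seen. The procedure was also run on simulated arrays. These were drawn independently, with the spread and weights estimated from these data. They therefore do not cover same-numbered arrays that deviate together.

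The genes and lists were chosen with earlier results of these data known. The text names all 9 genes, every listed pathway gene called in 1 of the 3 fits, crc, and up to 3 genes most like each called gene, within the 20 highest Pearson correlations over both 15 and 10 arrays. Lsp2 was singled out after its values were seen. Deviations from group means correlated between same-numbered arrays of control and ND-75 RNAi (0.385 to 0.771), UQCR-14 RNAi (0.733 to 0.852) and COX5B RNAi (0.230 to 0.622), so numbers were taken to pair these, but not ATPsynCf6 RNAi (-0.362 to 0.149). Deviations within a group cancel, so a shift shared by the arrays numbered 3 can produce part of these correlations. The block was fitted to all groups, ATPsynCf6 RNAi included.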

Additional observations from a re-analysis of the deposited data

How the results depend on the processing

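The 15-array fit called 0 of the 8 genes in every comparison. With replicate numbers as a block it called 0 of 8 too. In the fits that made calls, the block lost 8 of 17 of them, 5 of 6 for the 9 genes, and made others with array weights, as given above. Array weights called 1 gene for ATPsynCf6, and the 10 arrays 1 for UQCR-14 and 1 for the mean of the RNAi groups. Quantile normalization and array weights together called 1 gene for ND-75 (aay), 3 for UQCR-14 (CG6287, aay, pug), 3 for COX5B (CG6287, Nmdmc, pug), 2 for ATPsynCf6 (CG6287, Gnmt), 3 for the mean (CG6287, aay, Nmdmc) and 3 among the RNAi groups (aay, pug, Gnmt). The cause was not tested. Of 360 changes under the settings other than leaving out 1 array, 35 turned direction. None of them was called in the 15-array fit without weights. With quantile normalization and array weights together, some were called in the turned direction. These were Nmdmc in COX5B (0.69) and in the mean (0.56), and pug in COX5B (0.48). Array weights gave CG11899 -0.080 in UQCR-14, Shmt 0.068 in ATPsynCf6, Nmdmc 0.32 in ND-75 and 0.69 in COX5B and 0.45 in the mean, pug 0.71 in COX5B, Gnmt 0.54 in ND-75, Cbs -0.022 in ND-75. The 10 arrays gave CG11899 -0.076 in UQCR-14 and 0.0086 in the mean, Shmt 0.087 in ATPsynCf6, Nmdmc 0.098 in ND-75 and 0.66 in COX5B and 0.40 in the mean, pug 0.57 in COX5B, Gnmt 0.44 in ND-75, Cbs -0.11 in ND-75. Centring each array on its median gave CG11899 -0.11 in UQCR-14. Quantile normalization and array weights together gave CG11899 0.083 in the mean, Shmt 0.095 in ATPsynCf6, Nmdmc 0.53 in ND-75 and 0.69 in COX5B and 0.56 in the mean, pug 0.0061 in ND-75 and 0.48 in COX5B, Gnmt 0.72 in ND-75, Cbs 0.013 in ATPsynCf6. Quantile normalization gave aay 0.060 in COX5B, Nmdmc 0.050 in ND-75 and 0.022 in the mean, pug 0.41 in COX5B and -0.094 in ATPsynCf6, Cbs 0.048 in UQCR-14. A pseudocount of 64 gave pug 0.040 in COX5B, Gnmt -0.028 in COX5B. With 1 array left out, 39 of 600 changes turned direction, and the counts stayed at 0. Cbs ranged from -1.91 to 0.13 in COX5B, -0.47 to 0.042 in the mean, -0.16 to 0.42 in ND-75, -0.26 to 0.19 in UQCR-14. CG11899 ranged from -0.26 to 0.31 in UQCR-14. CG6287 ranged from -0.42 to 0.12 in ND-75. Gnmt ranged from -0.39 to 1.01 in COX5B, -0.83 to 0.51 in ND-75, -0.21 to 1.99 in UQCR-14. Nmdmc ranged from -0.22 to 0.59 in ATPsynCf6, -1.91 to 0.47 in COX5B, -0.42 to 0.39 in the mean, -0.44 to 0.50 in ND-75, -0.28 to 0.94 in UQCR-14. pug ranged from -0.15 to 0.26 in ATPsynCf6, -0.61 to 0.72 in COX5B, -0.060 to 0.33 in the mean, -0.38 to 0.033 in ND-75. Shmt ranged from -0.25 to 0.087 in ATPsynCf6, -0.42 to 0.18 in ND-75, -0.62 to 0.020 in UQCR-14. Signals near or below the array median limit what Gnmt and Sardh can show.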
